A study of Mus musculus with 14 samples.

Results

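The genes described here encode the proteins of the cytosolic ribosome. They were chosen by symbol alone: Rpl or Rps with 1 or 2 digits and an optional a, x or l, together with Rpsa and Rplp0 to Rplp2, without pseudogenes, the Rps6 kinases and Rps19bp1. The RNA count tables listed 82 such genes among 24465, and 72 of the 82 were among the 10374 genes with enough counts to test. In RefSeq's GRCm38.p6 annotation they lie on 19 chromosomes, with 14 of them on chromosome 7. The values come from Y1, an established mouse adrenocortical tumour cell line, not from normal adrenal tissue. Before treatment every culture spent 48 h in medium lacking serum, after which 10% fetal bovine serum was added for 5 h. One group received serum alone. The other received serum with FGF-2 (fibroblast growth factor 2, at 10 ng/ml), so that serum is common to both groups and no library represents starved cells. There were 3 libraries of polyadenylated RNA in each group. For H3K27ac, an acetylated histone mark of active promoters and enhancers, there were 2 in each group.

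Each ribosome is built from a small and a large subunit, in which ribosomal RNAs are held by about 1 copy of each ribosomal protein, so that the genes for these proteins are usually transcribed in step. Their mRNAs commonly begin with a C followed by a run of pyrimidines, the 5′ terminal oligopyrimidine tract, through which mTOR signalling controls their translation. Growth factors raise ribosome production in many cells, partly through translation of existing mRNA and partly through Myc and other transcription factors.

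The RNA libraries held 5625004 to 12696426 counts in genes. Of the markers of the adrenal cortex, 8 of 8 had counts, with a summed level of 839 to 1085 CPM (gene counts relative to the scaled library size) in serum and 2350 to 3831 with FGF-2. Of the 6 that could be tested, Star was called higher and Cyp11a1 and Fdxr lower. Of 6 markers of the adrenal medulla, 4 had counts, and Th and Dbh were listed at 0. The medulla markers summed to 5.35 to 7.02 CPM in serum and at most 2.72 with FGF-2. The 1 that could be tested was called lower. Of 7 markers of endothelium and blood, 6 had counts, and the blood gene Hba-a1 was listed at 0. These 7 summed to 9.27 to 15.1 CPM in serum and 9.97 to 12.2 with FGF-2. Of the 2 that could be tested, 1 was called lower and 0 higher. Fibroblast and capsule markers summed to 3023 to 3809 CPM in serum and 2214 to 3081 with FGF-2, with Col1a2 and Dcn at 0. Their part in the results was not tested. The first principal component of the RNA libraries held 79.5% of the variance, and on it the third serum library was closest to the treated group. In bulk RNA, fewer cells of a type and less RNA per cell cannot be told apart. Nothing in the labels says that libraries of a group came from separate cultures, so p-values measure only the spread between these libraries, which may be technical.

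With FGF-2, the ribosomal protein genes lay above the median of all genes by a small and nearly equal amount. Their direction taken alone reversed with library totals. Scaled by TMM (trimmed mean of M-values, which sets the bulk of genes equal), the summed level of the 82 genes was 18586, 18159 and 17514 CPM in serum and 21645, 20045 and 25040 CPM with FGF-2. Every FGF-2 library was thus above every serum library, at means of 18086 ± 540 and 22244 ± 2551 CPM (SD, n = 3 per group), a ratio of 1.23. The median log2 fold change of the 72 tested genes, FGF-2 over serum, was 0.28, with quartiles at 0.23 and 0.35, beside -0.023 over all genes tested. All 72 lay above the median of all genes. That median takes in many genes with fewer counts: the 3059 other genes in the CPM range of the 70 abundant ribosomal protein genes had a median of 0.16, nearer to the 0.28 of those 70.

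A minority of the genes passed the test singly. In edgeR's quasi-likelihood test, with Benjamini-Hochberg adjustment over all genes at 0.05, 21 of 72 (29.2%) were higher and 0 were lower, beside 22.1% of all genes higher and 24.2% lower. Among the 3059 other genes in the CPM range of the 70 abundant ones, 35.1% were higher and 14.8% lower, beside 30.0% and 0 of the 70. At an unadjusted p under 0.05, 48 of 72 (66.7%) were higher and 0 were lower, beside 26.1% and 28.3% of all genes. DESeq2 called 28 of 74 genes with an adjusted p higher (37.8%) and 0 lower, beside 19.6% and 17.6% of all such genes. limma-voom called 23 of 72 higher (31.9%) and 0 lower, beside 22.4% and 24.7% of all genes. In 53 of the 72 (73.6%) the 3 FGF-2 libraries all lay above the 3 serum libraries, which was so for 28.1% of all genes, and in 0 of the 72 they all lay below, against 29.4% of all genes.

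**Figure D1:**
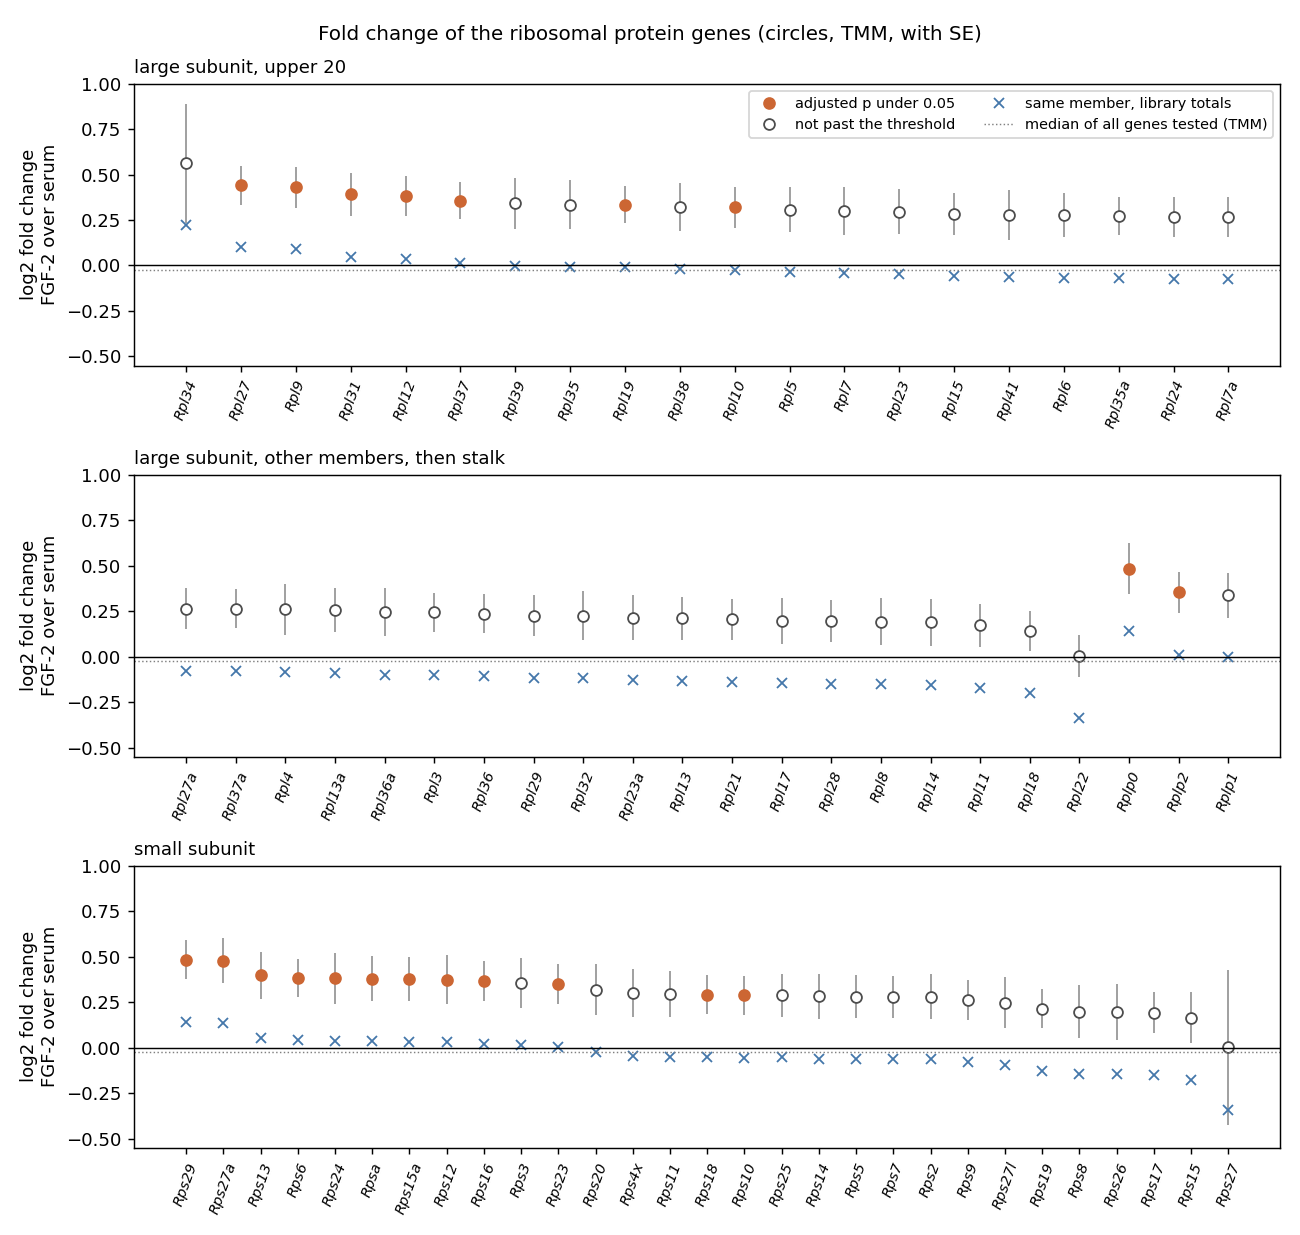
Log2 fold change (FGF-2 over serum) of the tested ribosomal protein genes, with 1 of the 72 not shown, large subunit and stalk above, small subunit below. Circles are TMM-scaled values with their SE, filled where the edgeR adjusted p was under 0.05, and crosses are the same genes scaled by library totals alone, where 53 of the 72 were below 0.

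The size of the shift was set by the scaling, and its direction reversed with library totals alone. Upper-quartile scaling gave a median of 0.14 with 3 genes, Rps29, Rps27a and Rpl27, higher and 0 lower (15.6% and 32.0% of all genes). Library totals gave a median of -0.061, with 0 higher and 1 lower (9.98% and 45.1% of all genes). At an unadjusted p under 0.05 it was also 0 higher and 1 lower (11.3% and 49.1% of all genes). The gene called lower was Rpl22. The median of all genes moved with the scaling too, to -0.16 and -0.36. The gap between the ribosomal protein genes and all genes was 0.31 with TMM and 0.30 with either of the other scalings. A change of scaling moves every gene by nearly the same amount. The equal gaps were thus fixed in advance and are no test of the gap. Among all called genes, the share that was higher was 47.7% with TMM, 32.7% by the upper quartile and 18.1% by library totals.

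As a plain share of each library's gene counts, the 82 genes did not separate the groups. They took 2.14%, 2.09% and 1.88% in serum and 1.97%, 1.79% and 2.16% with FGF-2, means of 2.03 ± 0.139% and 1.97 ± 0.185% (SD, n = 3). The FGF-2 libraries spanned the whole serum range. The libraries differed in how much a few other genes took up: the 20 non-members with most counts held 6.18% to 8.00% of counts in serum and 12.6% to 13.1% with FGF-2. With those 20 genes left out of the total, the ribosomal protein share was 2.18 ± 0.127% in serum and 2.26 ± 0.214% with FGF-2, still overlapping. Over the TMM-scaled library size it was 1.81% and 2.22%.

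**Figure D2:**
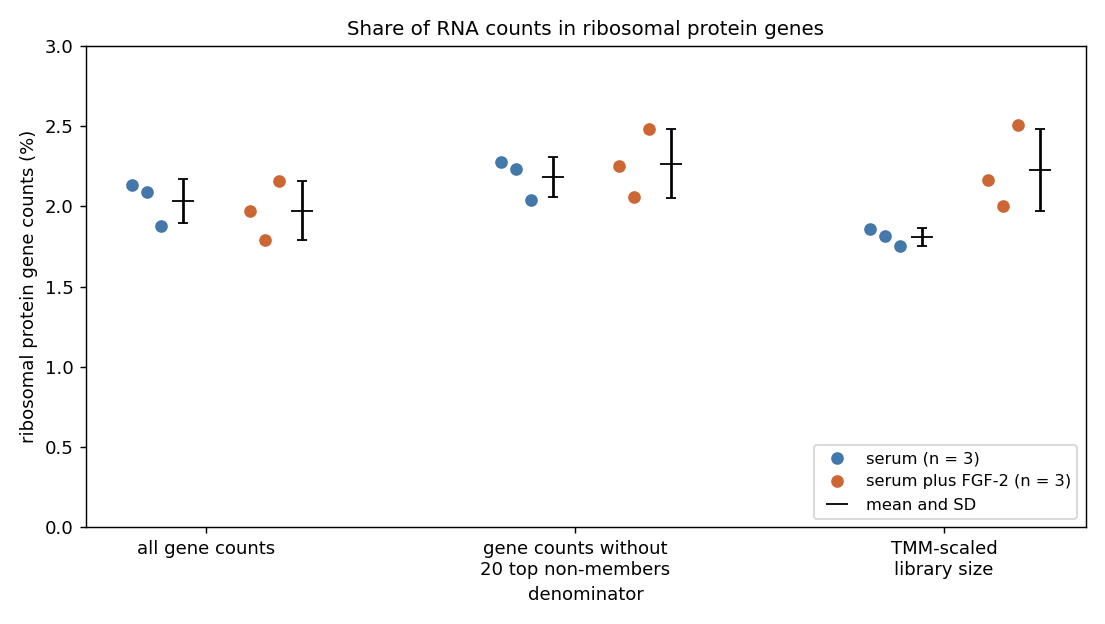
Percent of RNA counts in the 82 ribosomal protein genes, 1 point per library with group mean and SD (n = 3), for 3 denominators. The groups overlap for all gene counts (means of 2.03% and 1.97%) and separate for the TMM-scaled library size (1.81% and 2.22%).

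Within a library the 72 genes deviated together. Taking each gene's log2 level over its own serum mean, the median over the genes was 0.055, 0.0094 and -0.073 in the 3 serum libraries and 0.25, 0.14 and 0.45 in the FGF-2 libraries. FGF-2 library 3 was the highest and FGF-2 library 2 the lowest of its group. With library totals the same medians were 0.084, 0.043 and -0.14 in serum and -0.050, -0.20 and 0.065 with FGF-2, so that the groups overlapped. Fold changes of the 70 genes above 1000 counts in all had an SD of 0.085 across genes. That SD was 0.75 over the 3059 other genes in their CPM range and 0.92 over all genes tested. The genes share their libraries and are not independent replicates.

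**Figure D3:**
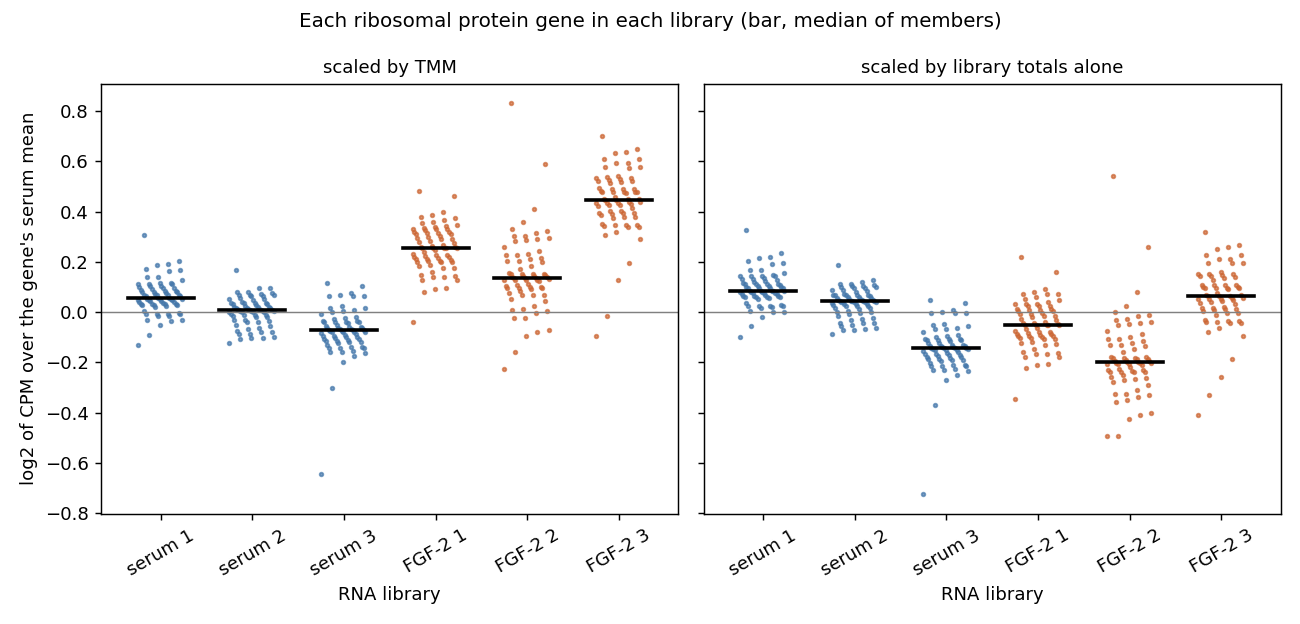
Log2 of each tested ribosomal protein gene over its own serum mean in each RNA library (1 point per gene, bar at the median of 72). With TMM the FGF-2 medians are 0.25, 0.14 and 0.45, above the serum medians, and with library totals they are -0.050, -0.20 and 0.065 and overlap with serum.

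Which genes passed depended on single libraries. Leaving out serum library 1, 2 or 3 gave 12, 6 or 13 of the 72 genes higher (16.7%, 8.33% and 18.1%), beside 17.0%, 15.4% and 22.8% of all genes. Leaving out FGF-2 library 1, 2 or 3 gave 13, 33 or 12 (18.1%, 45.8% and 16.7%), beside 18.4%, 19.5% and 20.3% of all genes. In each of the 6 fits 0 were lower, beside 19.3%, 17.9% and 23.9% of all genes without a serum library and 19.1%, 20.1% and 22.3% without an FGF-2 library, in the same order. Of the 21 genes called, 5 were called in each of these 6 fits: Rps29, Rps27a, Rps6, Rpl27 and Rpl37. Rpl10, Rps10, Rps18 and Rps24 were called in 1 of the 6. The median stayed above 0 in every such fit with TMM.

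In the stalk of the large subunit, Rplp0 anchors pairs of Rplp1 and Rplp2 that recruit translation factors. Of these 3 genes, 2 (66.7%) were called higher and 0 lower, beside 22.1% and 24.2% of all genes. Rplp0 measured 1111, 1232 and 1308 CPM in serum and 1675, 1530 and 1895 CPM with FGF-2. Each FGF-2 library exceeded each serum library, with a log2 fold change of 0.48 ± 0.14 (SE, edgeR adjusted p = 0.0183), falling to 0.14 with library totals, where the call was lost. The call was also lost without serum library 1 or 2. Rplp2 had a log2 fold change of 0.35 (edgeR adjusted p = 0.0253), which was not reached when any 1 serum library, or the first FGF-2 library, was left out. Rplp1, at 583 ± 23.3 CPM in serum and 736 ± 85.6 CPM with FGF-2, fell short of the threshold with a log2 fold change of 0.34 (edgeR adjusted p = 0.0508), while DESeq2 and limma-voom put it past theirs.

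Rplp0 took more of the ribosomal protein counts than any other of the 82, 5.97%, 6.78% and 7.47% in serum and 7.74%, 7.63% and 7.57% with FGF-2. This share does not depend on the scaling of libraries. It counts reads and is not a level per length, since no transcript lengths were used.

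Of 29 tested genes of the small subunit, 12 (41.4%) were called higher and 0 lower, beside 22.1% and 24.2% of all genes. Their median log2 fold change was 0.29 (-0.050 with library totals). Rps29, a small zinc-binding protein, had the largest rise among called genes. It measured 63.9, 57.0 and 58.3 CPM in serum and 76.6, 90.2 and 84.0 CPM with FGF-2, a log2 fold change of 0.48 ± 0.11 (SE, edgeR adjusted p = 0.00534), against 0.14 with library totals. Rps27a, made as a fusion with ubiquitin and so also a source of free ubiquitin, measured 183, 167 and 162 CPM in serum and 223, 214 and 278 CPM with FGF-2. Its log2 fold change was 0.48 ± 0.12 (SE, edgeR adjusted p = 0.0109), and its groups did not overlap.

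Rps6, the substrate of the S6 kinases downstream of mTOR and ERK signalling, measured 141, 140 and 128 CPM in serum and 168, 170 and 196 CPM with FGF-2. The log2 fold change was 0.38 ± 0.11 (SE, edgeR adjusted p = 0.0149), and 0.040 with library totals. Rpsa, also known as the laminin receptor precursor, gave 0.38 (edgeR adjusted p = 0.0303), a call that ended without the first or second serum library or the third FGF-2 library. Rps13 at 0.40 lost its call on leaving out serum library 2, serum library 3 or FGF-2 library 3. Rps24 at 0.38 kept its call only without FGF-2 library 2. Rps19, of which the loss of 1 copy in people causes Diamond-Blackfan anaemia, measured 145 ± 10.4 and 169 ± 13.1 CPM, with a log2 fold change of 0.22 (edgeR adjusted p = 0.123). Rps4x, the X-linked gene of another small subunit protein, gave 0.30 (edgeR adjusted p = 0.0867).

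Of 40 tested genes of the large subunit outside the stalk, 7 (17.5%) were called higher and 0 lower, beside 22.1% and 24.2% of all genes. Their median log2 fold change was 0.27 (-0.074 with library totals). Rpl27 measured 70.8, 61.5 and 63.6 CPM in serum and 84.8, 87.0 and 94.7 CPM with FGF-2. The log2 fold change was 0.44 ± 0.11 (SE, edgeR adjusted p = 0.00749), and 0.099 with library totals. Rpl37, singled out after its values were seen, went from 137 ± 6.02 to 175 ± 10.3 CPM, a log2 fold change of 0.36 (edgeR adjusted p = 0.0149). Rpl9 rose by 0.43 on the log2 scale, a call lost without serum library 2. Rpl12 rose by 0.38, lost without serum library 1. Rpl31 rose by 0.39, lost without serum library 2 or 3. Rpl10, which is loaded late and is needed for the subunits to join, rose by 0.32 with TMM (edgeR adjusted p = 0.0394), had -0.024 with library totals, and kept its call in 1 of the 6 fits without a library, that without FGF-2 library 2. Rpl39, a short protein of the exit tunnel, gave 0.34 (edgeR adjusted p = 0.0678) with overlapping groups. Rpl3, which reaches towards the peptidyl transferase centre, gave 0.24 and Rpl13a 0.25, both short of the threshold with edgeR adjusted p = 0.0872 and 0.111.

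Rpl22 stood at the lower end of the abundant genes and was singled out after its values were seen. It is a protein of the large subunit that cells can do without, with a paralog, Rpl22l1, that was listed with 1 count in all. Rpl22 measured 220, 210 and 217 CPM in serum and 210, 193 and 247 CPM with FGF-2, so that the groups overlapped (log2 fold change 0.0044, edgeR adjusted p = 0.979). With library totals it was lower, at -0.34 (edgeR adjusted p = 0.0279). Its part of all ribosomal protein counts, which no scaling changes, was 1.18%, 1.16% and 1.24% in serum and 0.969%, 0.963% and 0.986% with FGF-2, without overlap. Rps27a went the other way by this measure, with 0.984%, 0.919% and 0.926% in serum and 1.03%, 1.07% and 1.11% with FGF-2.

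The genes whose proteins bind Mdm2 when ribosome assembly is disturbed were among those short of the threshold. Rpl5 and Rpl11, bound to the smallest ribosomal RNA of the large subunit, then restrain Mdm2, the ubiquitin ligase of the Trp53 protein. Rpl5 measured 145, 118 and 114 CPM in serum and 145, 151 and 172 CPM with FGF-2, a log2 fold change of 0.31 (edgeR adjusted p = 0.0658). Serum library 1 was level with the lowest FGF-2 library. Rpl11 gave 0.17 (edgeR adjusted p = 0.254), Rpl23 gave 0.30 (edgeR adjusted p = 0.0706) and Rps7 gave 0.28 (edgeR adjusted p = 0.0677). With library totals these 4 genes had values of -0.038, -0.17, -0.047 and -0.065, none past the threshold. Rps27l, a paralog of Rps27 that Trp53 can induce, measured 76.1, 78.3 and 82.5 CPM in serum and 97.0, 74.8 and 110 CPM with FGF-2. Its groups overlapped, and the log2 fold change of 0.25 missed the threshold (edgeR adjusted p = 0.173).

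Of the 82 genes, 10 had too few counts to test, and 3 of these (Rpl10l, Rps21 and Rps28) had 0 counts in all 6 libraries. The others held 1 to 39 counts: Rpl10a, Rpl26, Rpl30, Rpl32l, Rpl39l, Rpl3l and Rps4l. Rpl34 and Rps27 were tested with under 1000 counts each. Rps27 measured 1.84 ± 0.741 CPM in serum and 1.92 ± 0.477 CPM with FGF-2. Rpl34 had the highest log2 fold change of all, 0.56, with an SE of 0.33 and an edgeR adjusted p = 0.181. Rpl10l, Rpl39l and Rpl3l are paralogs known from testis or muscle. Rps21, Rps28, Rpl10a, Rpl26 and Rpl30, in contrast, are genes that all cells use, so a count at or near 0 in these tables does not show that the gene was silent. Reads with more than 1 match are listed as 0 in every library, and ribosomal protein genes have many near-identical processed copies in the mouse genome, so the counts of all 82 genes may be split or lost. How far this touched each gene was not tested.

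Some genes of ribosomal proteins carry names outside the rule. Fau, whose product is processed to a protein of the small subunit, was called higher with TMM at 0.34 (edgeR adjusted p = 0.0306), and had -0.0028 with library totals. Rack1, a scaffold on the small subunit, gave 0.20 (edgeR adjusted p = 0.211), and Rps3a1 gave 0.37 (edgeR adjusted p = 0.0511). The authors' deposited table, from DESeq2, gives 28 of 74 ribosomal protein genes as higher and 0 as lower, with a median log2 fold change of 0.30, beside 19.95% and 17.9% of its 11952 genes with an adjusted p.

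Lists of genes that make or regulate ribosomes differed in the share called. Over all genes tested, 22.1% were higher and 24.2% lower with TMM, and 9.98% and 45.1% with library totals. Of 29 tested chaperones, importins and assembly factors, 19 (65.5%) were higher and 0 lower, with a median log2 fold change of 0.43. With library totals 5 (17.2%) were higher and 0 lower, at a median of 0.090. Ipo7, which imports ribosomal proteins into the nucleus, went from 266 ± 25.0 to 620 ± 72.4 CPM, a log2 fold change of 1.22 (edgeR adjusted p = 9.11e-05). Ipo5 rose by 0.90 and Nmd3, the export adapter of the large subunit, by 0.94, and all 3 calls held with library totals.

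Of 26 translation factors and other mRNAs known for pyrimidine tracts, 13 (50.0%) were higher and 0 lower, with a median of 0.34. All genes tested had 22.1% higher and 24.2% lower. With library totals 2 (7.69%) were higher and 2 (7.69%) lower, at a median of -0.0035, beside 9.98% and 45.1% of all genes. Pabpc1, the poly(A)-binding protein, rose from 1722 ± 159 to 3245 ± 474 CPM, a log2 fold change of 0.91 (edgeR adjusted p = 0.00129). Vim, the filament protein vimentin, rose by 1.07. Of 70 mitochondrial ribosomal protein genes, 6 (8.57%) were higher and 11 (15.7%) lower, with a median of -0.011. With library totals 0 were higher and 34 (48.6%) lower, near the 45.1% of all genes that were lower. Mrpl32 was higher at 0.53, and Mrpl55, Mrpl14 and Mrpl2 were lower at -0.75, -0.64 and -0.64. Their median was close to that of all genes. The difference between the mitochondrial and the cytosolic list was not tested.

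In a list of 16 tested transcription factors placed at ribosomal protein promoters, 12 were higher and 1 lower, with a median of 0.48 (6 higher, 1 lower and 0.14 with library totals). Among all genes tested, 22.1% were higher and 24.2% lower with TMM, and 9.98% and 45.1% with library totals. Runx1 measured 19.7, 28.9 and 43.7 CPM in serum and 116, 89.9 and 118 CPM with FGF-2, a log2 fold change of 1.83 (edgeR adjusted p = 0.00133). Zbtb7a and Mxi1 rose by 0.95 each, while E2f1 fell from 46.1 ± 3.65 to 21.1 ± 2.33 CPM. Of 22 genes of mTOR and S6 kinase control, 3 (13.6%) were higher and 6 (27.3%) lower, with a median of -0.039. Both the lower share and the median were near those of all genes, 24.2% and -0.023. Eif4e, the cap-binding protein, measured 91.9, 82.5 and 99.1 CPM in serum and 247, 227 and 502 CPM with FGF-2, a log2 fold change of 1.83 (edgeR adjusted p = 0.00327). The third FGF-2 library stood well above the other two. Pdcd4, an inhibitor of translation initiation, fell by 1.16 on the log2 scale. With library totals 1 gene of this list (4.55%) was higher and 10 (45.5%) were lower, beside 9.98% and 45.1% of all genes.

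Of 11 tested genes of the Mdm2 list, which includes 5 of the ribosomal protein genes above, 2 (18.2%) were higher and 1 (9.09%) lower. All genes tested had 22.1% higher and 24.2% lower. The median of the list was 0.28. With library totals 1 (9.09%) was higher and 3 (27.3%) lower, at a median of -0.065, beside 9.98% and 45.1% of all genes. Cdkn1a, an inhibitor of the cell cycle and a target of Trp53, measured 203, 177 and 358 CPM in serum and 873, 965 and 1516 CPM with FGF-2, a log2 fold change of 2.19 (edgeR adjusted p = 0.00144). Mdm2 rose by 0.56 and Trp53 fell by 0.63 on the log2 scale, and the call of Mdm2 was lost with library totals. Of 16 genes of ribosome quality control, 2 (12.5%) were higher and 1 (6.25%) lower, with a median of 0.16. With library totals 0 were higher and 1 (6.25%) lower, at a median of -0.18. Nemf rose by 0.49 with TMM.

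The start of the mRNA is where ribosomal protein genes are known to share sequence. RefSeq windows from 250 bases before to 50 bases after an annotated start (GRCm38.p6) were found for 61 of the 82 genes. In 14 of the 61 (23.0%) the annotated first base was C and at least 4 pyrimidines followed, which held for 3.01% of 27025 genes. With at least 7 pyrimidines after the C it was 10 of 61 (16.4%), against 0.936%. The sequences below show 10 bases before and 20 from the annotated start on the gene's strand, with the tract in capitals, for 5 genes that have one and for 2 described above whose annotated start has none.
Rps6: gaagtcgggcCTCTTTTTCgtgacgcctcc
Rps18: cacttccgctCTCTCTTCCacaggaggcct
Rpl35: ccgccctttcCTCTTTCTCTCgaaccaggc
Rpl15: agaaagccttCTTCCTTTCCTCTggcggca
Rplp2: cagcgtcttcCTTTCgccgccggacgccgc
Rplp0: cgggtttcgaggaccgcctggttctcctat
Rpl22: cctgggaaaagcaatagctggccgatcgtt
They lie at chr4:86857348-86857377 (minus strand), chr17:33955646-33955675 (minus), chr2:39005112-39005141 (minus), chr14:18270967-18270996 (minus), chr7:141447641-141447670 (plus), chr5:115559457-115559486 (plus) and chr4:152325716-152325745 (plus). Tract lengths were 9, 9, 11, 13 and 5 bases in the first 5.

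An annotated start can lie some bases from the one used in these cells. When the tract was allowed to begin within 2 bases of it, 22 of 61 genes had one (36.1%, against 10.6% of all genes). Genes with and without a tract at the annotated start did not separate in the RNA data: the median log2 fold change was 0.29 in both. Called higher were 5 of 12 and 14 of 41 tested genes, beside 22.1% of all genes tested. The RNA libraries measure mRNA level and not translation, which the tract is known to control.

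At their promoters, the ribosomal protein genes were strongly acetylated in both groups. Peaks called by the authors in each library lay within 1000 bases of the annotated start in 57 of 61 genes in each of the 4 libraries (93.4%), against 37.9% to 38.8% of 27025 genes. Those 27025 take in many genes too low to test in RNA, and genes of like RNA level were not compared. The 4 genes with no such peak in any library were Rpl10l, Rpl32l, Rpl39l and Rpl3l, all 4 of which were also at or near 0 in the RNA. Rpl10a, Rpl26, Rps21 and Rps28, whose RNA counts were too low to test, had a peak in all 4 libraries. The acetylated region nearest the Rps21 start, for instance, had normalised reads of 416 and 319 in serum and 350 and 363 with FGF-2, and that of Rps28 had 364, 277, 359 and 343.

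The authors' fold enrichment at these peaks had a median of 41.3 and 33.2 in the serum libraries and 35.1 and 33.4 with FGF-2, against 20.2 to 24.1 over all genes with a peak. The first serum library was the highest for both the ribosomal protein genes and all genes. Summits lay downstream of the start in 50 to 52 of the 57 genes, at a median of 254 to 286 bases. Summit positions of other genes were not compared. No summit was closer to an annotated start than 82 bases.

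**Figure D4:**
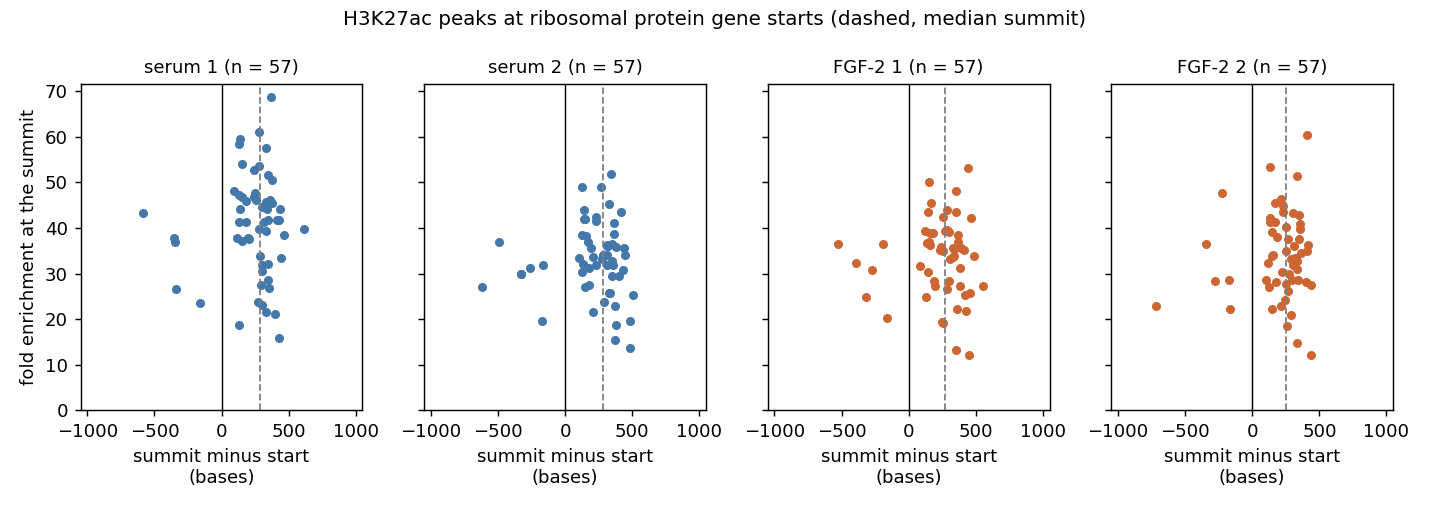
Fold enrichment of the strongest H3K27ac peak within 1000 bases of each annotated ribosomal protein gene start against the position of its summit, 1 panel per library (57 genes each; solid line, start; dashed line, median summit). Most summits lie 254 to 286 bases downstream at the median, in both groups, and none lies within 82 bases of the start.

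No promoter region listed for these genes was called changed between the groups. The authors' region table gives 83 promoter rows (within 3 kb of a start) for 63 of the 82 genes. Of the 19 genes without a row, 8 had a peak at the annotated start in all 4 libraries. These were Rpl10, Rpl12, Rpl18, Rpl26, Rpl4, Rplp2, Rps25 and Rpsa, and their start peaks did not enter this comparison. For Rpl13, Rpl23, Rpl41 and Rps2, which also had start peaks, the nearest row lay -1318, 2690, -397 and 1160 bases away. At the authors' false discovery rate of 0.05, 0 were higher and 0 lower, beside 2.76% and 0.769% of 14431 promoter regions, and 2 (2.41%) had an unadjusted p under 0.05, beside 9.96% of all promoter regions. The median log2 fold was 0.06, beside 0.05 over all promoter regions. Within 1 kb of a start, 66 regions had folds from -0.48 to 0.55, and 62 of them (93.9%) lay within 0.3 of 0, against 66.4% of all such regions, whose median log2 signal was 6.94 against 8.07. The region nearest the start was above the median signal of other genes in 52 of 63 genes. Missing the threshold with 2 libraries per group does not show that the levels were equal.

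The regions of 3 genes that were called higher in RNA in every fit without 1 library show the spread. The region over the Rps6 start (chr4:86855583-86858146) had normalised reads of 372 and 303 in serum and 337 and 338 with FGF-2, a log2 fold of 0.00 in the authors' deposited table. The Rps29 region had 273 and 221 against 253 and 285, and the Rpl27 region 240 and 177 against 204 and 228. In each of these 3 regions the first serum library exceeded the second by more than the group means differed. This was not particular to them: the second serum library held 28.0% of its fragments in regions, against 35.3% in the first. The FGF-2 libraries held 34.1% and 34.6%. The signals are scaled by fragments in all.

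**Figure D5:**
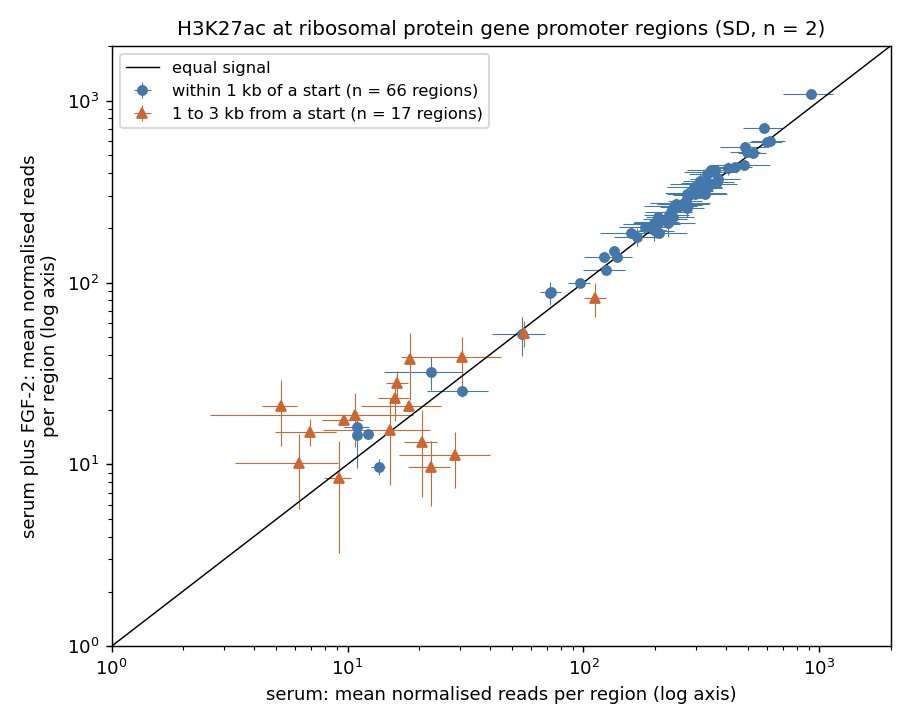
Mean normalised H3K27ac reads with FGF-2 against serum (log axes, bars are SD of 2 libraries) for the 83 promoter regions of ribosomal protein genes. The 66 regions within 1 kb of a start lie near the line of equal signal, and the 17 regions 1 to 3 kb away have few reads and scatter from -1.33 to 1.99 on the log2 scale.

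The largest folds, all from the authors' deposited table, came from small regions away from the start. A region 2047 bases from the Rplp1 start (chr9:61911916-61912463) had 4.60 and 5.85 normalised reads in serum and 26.6 and 15.0 with FGF-2, a log2 fold of 1.99 with a false discovery rate of 0.0938. In edgeR on reads recovered from these signals it was past the threshold (adjusted p = 0.0428), as 9.17% of promoter regions were in either direction, but not without serum library 1 or FGF-2 library 1 (adjusted p = 0.151 and 0.327). A region -1318 bases from the Rpl13 start had 36.8 and 20.1 reads in serum and 8.56 and 14.0 with FGF-2, a log2 fold of -1.33. Of the edgeR fits on all 4 libraries without a replicate term, it passed with library totals (adjusted p = 0.0475, 5.52% of promoter regions in either direction) and missed with TMM (adjusted p = 0.0507). Regions of Rps10, Rplp0, Rpl23 and Rps2 had folds of 1.13, 1.04, 0.85 and 0.79, and regions of Rpl24, Rps16 and Rps29 had -1.22, -0.64 and -0.48, with no false discovery rate under 0.05. In edgeR with 1 library left out, the Rpl24 region passed without serum library 1 and the Rpl13 region without serum library 2. Such a region is tied to the named gene only by distance. Across the 59 genes with both values, the fold of the nearest region and the RNA log2 fold change had a Pearson r of 0.13 and a Spearman rho of 0.10, given as a description of genes that share the same libraries.

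The 300-base windows of the 61 genes held some motifs more often than those of all genes. Motifs were chosen after the data had been seen and searched on both strands. CCGGAAG, the core bound by ETS factors such as Gabpa, occurred in 25 of 61 windows (41.0%, against 9.93% of all genes). GGGCGG, the GC box bound by Sp1, occurred in 36 (59.0% against 38.2%), in windows whose median G and C content was 56.7% against 52.8%. TGACGTCA, the cyclic AMP response element, occurred in 5 (8.20% against 2.03%) and AAGATGGC, bound by Yy1, in 5 (8.20% against 3.19%). CACGTG, the E-box of Myc and Max, was near the share of all genes, at 9.84% against 8.09%, and TATAAA was at 11.5% against 15.7%. These are matches of letters and not measured sites of binding.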

How the data were processed

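The deposited RNA tables hold raw counts of reads for each gene symbol, made by the authors with HTSeq per the labels. The submitters' processing notes name STAR 2.5.2a, HTSeq 0.10.0, MACS2 2.2.6, DiffBind, ChIPseeker, DESeq2 and build mm10. For the annotation and strand setting of the counting step, the entry is: not given in the sources used here. Counts outside genes or in more than 1 gene (37.0% to 43.2% of those listed) were left out. A count of 0 allows up to 0.265 to 0.543 CPM (3 counts over the TMM-scaled size of a library), and such floors cover counting error only.

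Genes were tested with edgeR 4.0.16 in R 4.3.3 (quasi-likelihood, robust, TMM, filterByExpr, adjustment over all genes). The SE is the size of the log2 fold change divided by the root of F. For RNA the authors deposited a DESeq2 table with a base mean signal, log2 fold changes, a Wald score and p-values, and DESeq2 1.42.0 run here returned its log2 values to within 5.13e-10. For H3K27ac they deposited a table of regions with p-values, log2 folds and a normalised signal for each library. Signals came out as whole reads (within 0.02) for 99.998% of values in 3 libraries and 100% in the other one, after a factor per library was estimated from the values, and edgeR was run on them. Peak files give −log10 q and p values, pileup signal and fold (a ratio) for each library against its own input, per the file headers. Fragments numbered 11840994 to 14156846 in the ChIP libraries and 12241177 to 110273836 in the inputs. Scripts were tested on simulated data. The RNA test recovered 3.03%, 22.7% and 70.8% of genes changed 1.25-, 1.5- and 2-fold. These genes were drawn from all genes tested and not from the abundant ones. For H3K27ac, edgeR recovered 39% and 81% of regions changed 2- and 4-fold.

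The members, lists, markers and rules were chosen with earlier results of these data known, and the motifs after seeing the data. Named were the 10 largest increases among called genes, a fixed set of genes by role, the 5 largest region changes each way, and those of up to 3 called genes each way per list that were called in each fit without 1 RNA library (19 of 28). Some genes that these rules take are left out of the text. Levels per length were not compared, since transcript lengths were not used. A permutation test of the summed share was planned and is not given, since the genes were chosen with results known. Chi-square values of 9.06 to 24.0 per degree of freedom put the difference between replicate libraries above sampling noise. Alternatives covered tool, scaling, filter, threshold, replicate block, left-out libraries and the tract rule. Figures were drawn with matplotlib 3.10.9 in Python 3.11.15.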

Additional observations from a re-analysis of the deposited data

How the results depend on the processing

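The count of ribosomal protein genes called higher was 21 of 72 (29.2%), and 0 were lower, beside 22.1% and 24.2% of all genes. Library totals gave 0 higher and 1 lower, beside 9.98% and 45.1% of all genes. Upper-quartile scaling gave 3 higher, beside 15.6% of all genes. A false discovery rate of 0.01 gave 2 higher, with the share over all genes not given here. Fits without 1 library gave 6 to 33 higher, beside 15.4% to 22.8% of all genes, and the cause of the wide range was not tested. DESeq2, limma-voom, TMM without the members, median-ratio factors and no low-count filter gave 23 to 28, beside 15.6% to 23.2% of all genes. The median log2 fold change of 0.28 became -0.061 with library totals and 0.14 with upper-quartile scaling, and was 0.21 to 0.35 without 1 library.

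Library totals reversed these genes: Rps27l to -0.093, Rpl3 to -0.10, Rpl10 to -0.024, Rpl39 to -0.0021, Rps27 to -0.34, Rpl5 to -0.038, Rpl11 to -0.17, Rpl23 to -0.047, Rps7 to -0.065, Rplp1 to -0.0049, Rps19 to -0.13, Rpl13a to -0.090, Rps4x to -0.043, Rpl22 to -0.34, Fau to -0.0028 and Rack1 to -0.15. Rps27 was -0.14 with upper-quartile scaling, and ranged from -0.23 to 0.23 without 1 library. Rpl22 was -0.14 with upper-quartile scaling and -0.0027 with the replicate block, and ranged from -0.095 to 0.084 without 1 library.

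Over all lists of related genes, without the ribosomal protein genes that the Mdm2 list holds, 57 were higher and 20 lower. Higher calls were 15 with library totals, 36 with upper-quartile scaling, 33 at the stricter rate and 36 to 55 without 1 library. Lower calls were 51, 35, 7 and 10 to 22 in that order, and 13 with DESeq2. Over all genes tested, 22.1% were higher and 24.2% lower with TMM, and 9.98% and 45.1% with library totals. The share of counts differed by -0.062 percentage points between groups, by 0.42 over the TMM-scaled size, and by -0.155 to 0.0304 without 1 library. For H3K27ac, edgeR on recovered reads gave 1 region higher with TMM, 1 higher and 1 lower with library totals, and 0 to 1 each way without 1 library. The tract count of 14 became 22 when the tract could begin within 2 bases of the start.

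Replicate numbers did not pair all of the RNA libraries: deviations of same-numbered libraries correlated at -0.103, 0.0656 and 0.381. Serum library 2 correlated best with FGF-2 library 1 (0.377), and serum library 1 with FGF-2 library 2 (0.320). The third libraries stood at -20.8 (serum) and -20.1 (FGF-2) on the second principal component (8.65% of variance). The others lay between 5.54 and 15.6. What the third libraries share was not tested. With the replicate block, 17 of 72 ribosomal protein genes (23.6%) were higher and 0 lower, beside 22.9% and 25.5% of all genes. For H3K27ac the replicate block gave 0 regions either way.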
